A study of Penicillium oxalicum with 6 samples.

Results

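*PoxBrlA* (*POX06534*), *PoxAbaA* (*POX07025*) and *PoxFlbD* (*POX07099*) are the conidiation regulator genes of *Penicillium oxalicum* that the study named in its RNA-seq data, and they are 3 of the 9834 genes in each deposited library. They were taken by gene identifier. They had come to attention because their transcripts were more abundant in the mutant Δ*PoxMKK1* than in its control Δ*PoxKu70*. A further reason was that *PoxBrlA* varied among the control libraries. Their levels and fold changes in that comparison, and their spread among the control libraries, are therefore given as a description, with no test. Δ*PoxMKK1* lacks the Ste7-like MAP kinase kinase gene *POX07948*, which was replaced by a G418 resistance cassette. Δ*PoxKu70* is its parent, in which *POX01583* is described as replaced by a hygromycin resistance gene to raise the frequency of gene targeting, so both strains carry that change. Hyphae were moved to a basic medium with Avicel, a microcrystalline cellulose, and shaken at 28 °C for 24 h before RNA isolation, with 3 libraries per strain called replicates F, S and T. Where 3 values are given for a strain, they are in that order. How many independent transformants of Δ*PoxMKK1* stand behind its 3 libraries is not given in the sources used here. None of the 6 libraries came from the complemented strain.

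Asexual sporulation in *Aspergillus* and *Penicillium* is run by a cascade of transcription factors (TFs). In *Aspergillus nidulans*, the Myb-type protein FlbD is one of several upstream activators that act on *brlA*, the C2H2 zinc finger protein BrlA starts conidiophore development, and the TEA/ATTS-domain protein AbaA acts after BrlA in the differentiation of phialides, the cells that bud off conidia. Submerged hyphae of such fungi usually keep this cascade low, and conidia are mostly formed at an air surface.

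The total expected count per library, an estimated number of reads per gene that need not be whole, lay between 13687087 and 14042791, so depth differed little. *POX07948* had between 0 and 2 counts in the libraries of Δ*PoxMKK1* and between 592 and 753 in Δ*PoxKu70*. *POX01583* had between 942 and 1365 counts in the 6 libraries, which goes against its description as a replaced gene in both strains. The 3 regulators all had whole counts and passed the filter on low counts, which kept 8749 genes. FPKM (fragments scaled to transcript length and to the mapped total) is used for levels, since it allows genes of different length to be compared. RNA came from bulk mycelium, so more conidiophore cells and more of these transcripts per cell cannot be told apart.

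*PoxFlbD*, the upstream activator, was the most abundant of the 3 in every library but 1. Its FPKM was 415, 510 and 448 in Δ*PoxMKK1*, against 165, 117 and 211 in Δ*PoxKu70*. The strains did not overlap, but the lowest library of Δ*PoxMKK1* stood only 1.97-fold above the highest of Δ*PoxKu70*. The mean was 457 ± 48.2 FPKM (SD, n = 3) in Δ*PoxMKK1* and 164 ± 46.7 FPKM (SD, n = 3) in Δ*PoxKu70*, and edgeR gave a log2 fold change of 1.42. *PoxFlbD* was already a well expressed gene in the control, where 86.6 to 91.8% of all genes had a lower FPKM, and 95.5 to 96.2% lay below it in Δ*PoxMKK1*.

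*PoxBrlA*, the central regulator, had 460.5, 394 and 379 FPKM in Δ*PoxMKK1*, against 29.4, 5.38 and 42.2 FPKM in Δ*PoxKu70*. The mutant libraries lay close together, whereas replicate S of Δ*PoxKu70* was far below the other 2 control libraries. The mean was 411 ± 43.1 FPKM (SD, n = 3) in Δ*PoxMKK1* and 25.7 ± 18.7 FPKM (SD, n = 3) in Δ*PoxKu70*, with edgeR giving a log2 fold change of 3.95. In Δ*PoxMKK1*, 95.2 to 95.9% of genes had a lower FPKM than *PoxBrlA*, against 24.0 to 66.2% in Δ*PoxKu70*. The size of the difference rested on the control library taken. The mean of Δ*PoxMKK1* was 14.01 times replicate F, 76.5 times replicate S and 9.74 times replicate T of Δ*PoxKu70*.

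*PoxAbaA*, the phialide gene, was the least abundant in the mutant, with 105 FPKM in replicate F, 92.2 FPKM in replicate S and 87.8 FPKM in replicate T of Δ*PoxMKK1*. The libraries of Δ*PoxKu70* had 4.40, 3.88 and 3.32 FPKM in the same order. These were low in absolute terms, from 111 to 151 counts, and near one another. The mean was 95.03 ± 9.01 FPKM (SD, n = 3) in Δ*PoxMKK1* and 3.87 ± 0.540 FPKM (SD, n = 3) in Δ*PoxKu70*, with edgeR giving a log2 fold change of 4.55. Its 9 ratios of 1 library of Δ*PoxMKK1* to 1 of Δ*PoxKu70* ran from 19.95 to 31.7, a narrow range beside 8.99 to 85.6 for *PoxBrlA*, and *PoxFlbD* ran from 1.97 to 4.35. All 3 genes thus had every library of Δ*PoxMKK1* above every library of Δ*PoxKu70*, which was so for 35.3% of the 8749 tested genes, and all 3 were upregulated by edgeR's threshold, which 10.8% of tested genes passed in that direction; nothing is read from these counts, since the comparison chose the genes.

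**Figure D1:**
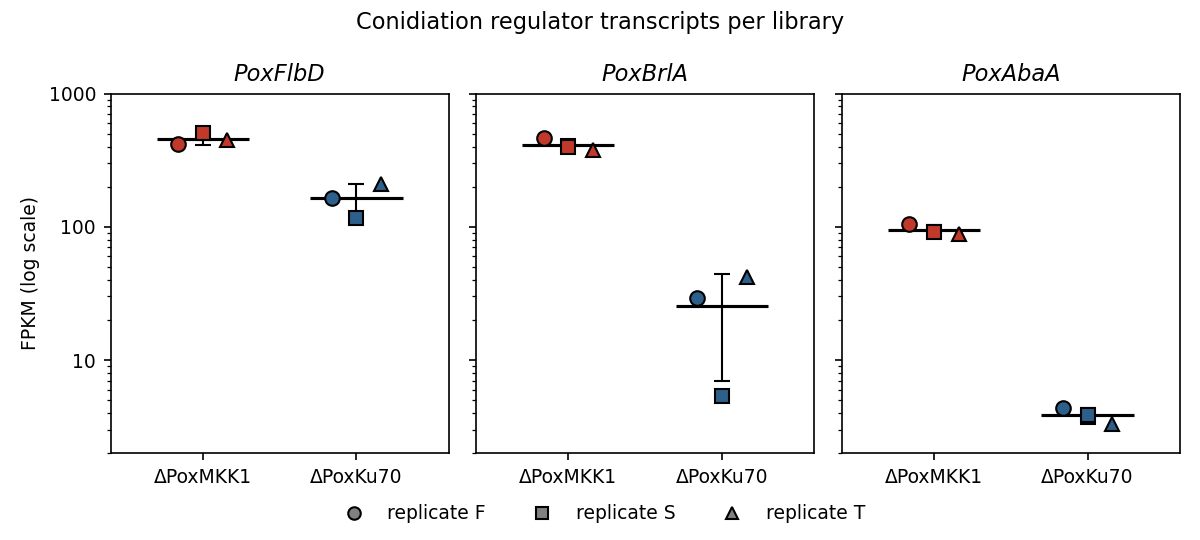
FPKM of *PoxFlbD*, *PoxBrlA* and *PoxAbaA* on a log axis in the 3 libraries of Δ*PoxMKK1* (left) and the 3 of Δ*PoxKu70* (right), with horizontal lines for the mean and bars for the SD. The control libraries of *PoxBrlA* run from 5.38 to 42.2 FPKM and those of *PoxAbaA* from 3.32 to 4.40 FPKM.

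Among the control libraries the 3 genes behaved differently. The highest control library of *PoxBrlA* had 7.85 times the FPKM of the lowest, against 1.80 times for *PoxFlbD* and 1.33 times for *PoxAbaA*. Of all tested genes, 99.4% had a smaller range among the libraries of Δ*PoxKu70* than *PoxBrlA* on the log2(FPKM + 0.5) scale, and 50 had a larger one. *PoxBrlA* had come to attention partly for this spread, so its place here and the intervals below are a description, with no test. *PoxFlbD* exceeded 88.0% of tested genes, and *PoxAbaA* was ordinary, exceeding 52.3%. The counts of *PoxBrlA* in Δ*PoxKu70* were 540 in replicate F (95% exact Poisson interval 495 to 588), 98 in replicate S (79.6 to 119) and 757 in replicate T (704 to 813), and the intervals, which cover counting error only, did not overlap. For *PoxAbaA* they were 151 (128 to 177), 132 (110 to 157) and 111 (91.3 to 134), and each interval overlapped both others. The order also differed, since *PoxBrlA* and *PoxFlbD* were both lowest in replicate S and highest in replicate T, while *PoxAbaA* was highest in F and lowest in T. Without replicate S the highest control library of *PoxBrlA* was 1.44 times the lowest and that of *PoxFlbD* 1.27 times. In Δ*PoxMKK1* the genes were alike, with the highest library 1.197 to 1.229 times the lowest.

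**Figure D2:**
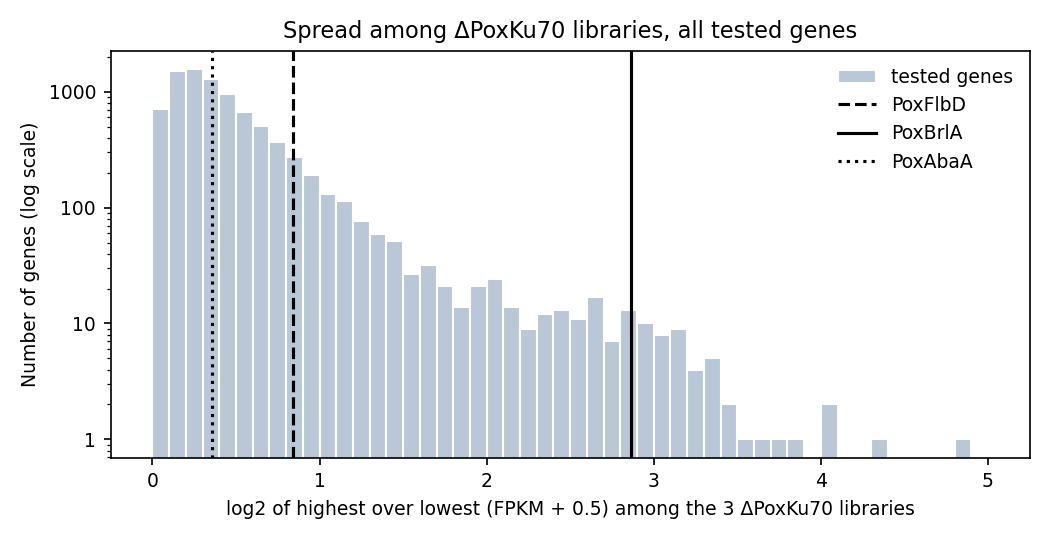
Number of tested genes (log axis) by the log2 ratio of the highest to the lowest FPKM + 0.5 among the 3 libraries of Δ*PoxKu70*, with vertical lines for the 3 regulators. *PoxBrlA* stands at 2.86, in the far right tail, *PoxFlbD* at 0.84 and *PoxAbaA* at 0.36, near the median of 0.34.

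Ratios between genes within a library do not depend on library size. The FPKM of *PoxAbaA* over that of *PoxBrlA* was 0.228, 0.234 and 0.231 in Δ*PoxMKK1*, against 0.150, 0.721 and 0.0786 in Δ*PoxKu70*. The mutant libraries were nearly identical, with the highest ratio 1.02 times the lowest, while the control ratios differed 9.17-fold and lay on both sides of the mutant values. Without replicate S of Δ*PoxKu70* the control ratios still differed 1.91-fold, and both remaining ones were below those of Δ*PoxMKK1*. In replicate S of Δ*PoxKu70*, *PoxBrlA* had fewer counts (98) than *PoxAbaA* (132), the only library where this was so. Scaled to transcript length, *PoxBrlA* still stood higher there, at 5.38 against 3.88 FPKM.

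The FPKM of *PoxBrlA* over that of *PoxFlbD* was 1.11, 0.773 and 0.847 in Δ*PoxMKK1*, against 0.178, 0.0459 and 0.200 in Δ*PoxKu70*. The central regulator thus stood near the level of its upstream activator in the mutant and well under it in each control library. *PoxAbaA* over *PoxFlbD* was 0.253, 0.181 and 0.196 in Δ*PoxMKK1* and 0.0266, 0.0331 and 0.0158 in Δ*PoxKu70*. Both of these ratios were higher in every mutant library than in any control library, so *PoxFlbD* differed between the strains by a smaller factor than the other 2 transcripts.

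**Figure D3:**
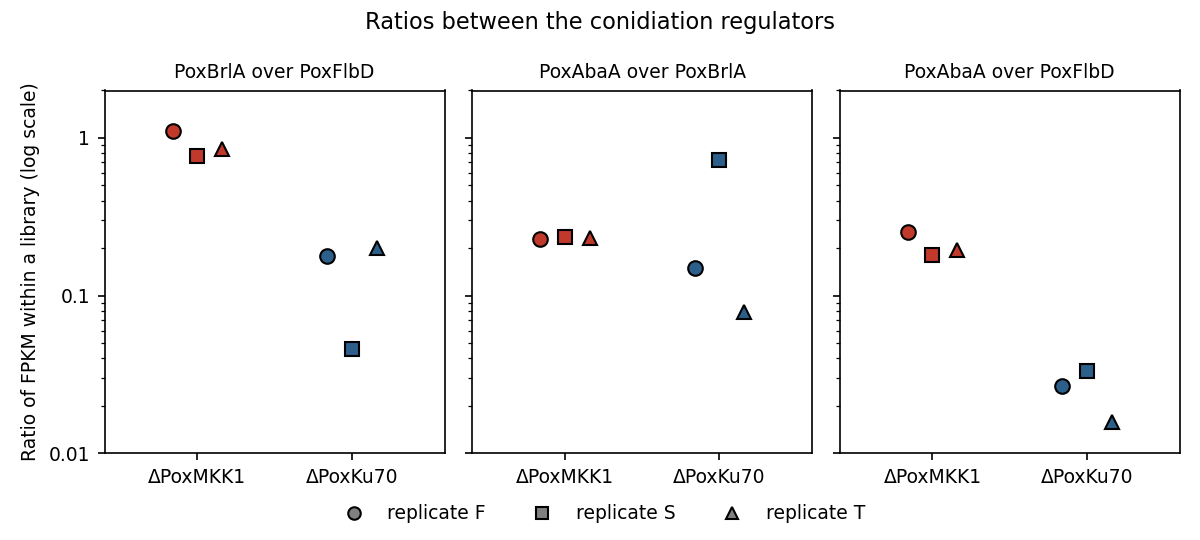
Ratio of FPKM between 2 regulators within each library on a log axis, with Δ*PoxMKK1* on the left and Δ*PoxKu70* on the right of each panel. The ratio of *PoxAbaA* to *PoxBrlA* is 0.228 to 0.234 in Δ*PoxMKK1* and 0.0786 to 0.721 in Δ*PoxKu70*.

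Genes of protein families with members known from conidia were looked up in the study's own list of differentially expressed genes (DEGs). The search went by its InterPro entries and CAZyme families and gave 13 genes. They are called conidium-related by family alone, and the role of each gene in conidia was not tested. They had been chosen by the study on these libraries for differing between the strains, so their share of calls is not independent evidence. At a Benjamini-Hochberg adjusted p below 0.05 from edgeR over all tested genes and a log2 fold change of at least 1 in size, 9 of the 13 were upregulated, 1 was downregulated and 3 were not called, beside 10.8% upregulated and 8.93% downregulated among all tested genes. Their median log2 fold change was 1.90, against 0.01 over all tested genes. Without replicate S of Δ*PoxKu70* 10 were upregulated and 2 downregulated, and without replicate T of Δ*PoxKu70* 11 were upregulated and 1 downregulated.

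Hydrophobins are small secreted proteins that make the surface of conidia and aerial hyphae water repellent. The hydrophobin gene *POX01764* was the most abundant of all genes in the 3 libraries of Δ*PoxMKK1*, with 66962, 63158 and 61596 FPKM, against 9628, 3283 and 15004 FPKM in Δ*PoxKu70*. It took 2.92 to 3.18% of the counts of a library in Δ*PoxMKK1* and 0.155 to 0.711% in Δ*PoxKu70*. Its log2 fold change was 2.73 (edgeR adjusted p = 0.00574), with a standard error of 0.532 worked back from the test statistic. *POX01413* rose further, to 283 ± 10.01 FPKM (SD, n = 3) in Δ*PoxMKK1* against 4.52 ± 3.77 FPKM (SD, n = 3) in Δ*PoxKu70*, with edgeR giving a log2 fold change of 5.90 (adjusted p = 3.50e-04). This was the largest rise among the 13 genes, and 1 control library of *POX01413* had only 0.29 FPKM. The other 2 hydrophobin genes did not pass the threshold. *POX01651* was higher in every library of Δ*PoxMKK1*, at 7236 to 9455 FPKM, than in Δ*PoxKu70*, at 818 to 5522 FPKM (log2 fold change 1.32, adjusted p = 0.105), and it passed by DESeq2 (1.30, adjusted p = 0.0278) and without replicate T of Δ*PoxKu70* (1.97, adjusted p = 0.0290 in edgeR's test). *POX06595* had 418 to 574 FPKM in Δ*PoxMKK1* and 279 to 1775 FPKM in Δ*PoxKu70* (log2 fold change -1.17, adjusted p = 0.130), and it passed as downregulated without replicate S of Δ*PoxKu70*, at -1.63 (adjusted p = 0.00200 in edgeR's test).

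Polyketide synthases and multicopper oxidases make, among other products, the pigment of conidia in *Aspergillus*, and which products these genes of *P. oxalicum* serve is not given in the sources used here. Of the 4 polyketide synthase genes, *POX01430* rose most, with 247, 347 and 321 FPKM in Δ*PoxMKK1* against 10.1, 1.98 and 15.0 FPKM in Δ*PoxKu70*, for a log2 fold change of 5.02 (adjusted p = 0.00143 in edgeR's test). *POX01177* and *POX04387* rose by 2.01 and 1.67 on the log2 scale, and *POX03931* fell by 2.90. Among the genes of family AA1, which are multicopper oxidases, *POX01431*, which follows *POX01430* in the numbering of the genes, rose by 3.61 (adjusted p = 0.00876) and *POX01391* by 2.92 (adjusted p = 0.00299). *POX08694* had 722 to 1157 FPKM in Δ*PoxMKK1* and 65.9 to 505 FPKM in Δ*PoxKu70* and did not pass (1.64, adjusted p = 0.0704), although it did with a replicate block, with limma and when either S or T of Δ*PoxKu70* was left out. Velvet-domain proteins, among them regulators of conidium maturation in *A. nidulans*, were encoded by *POX03392* and *POX09181*. Both rose, by 1.28 (adjusted p = 9.35e-05) and 1.90 (adjusted p = 3.71e-05), and which velvet protein each one encodes is not given in the sources used here.

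**Figure D4:**
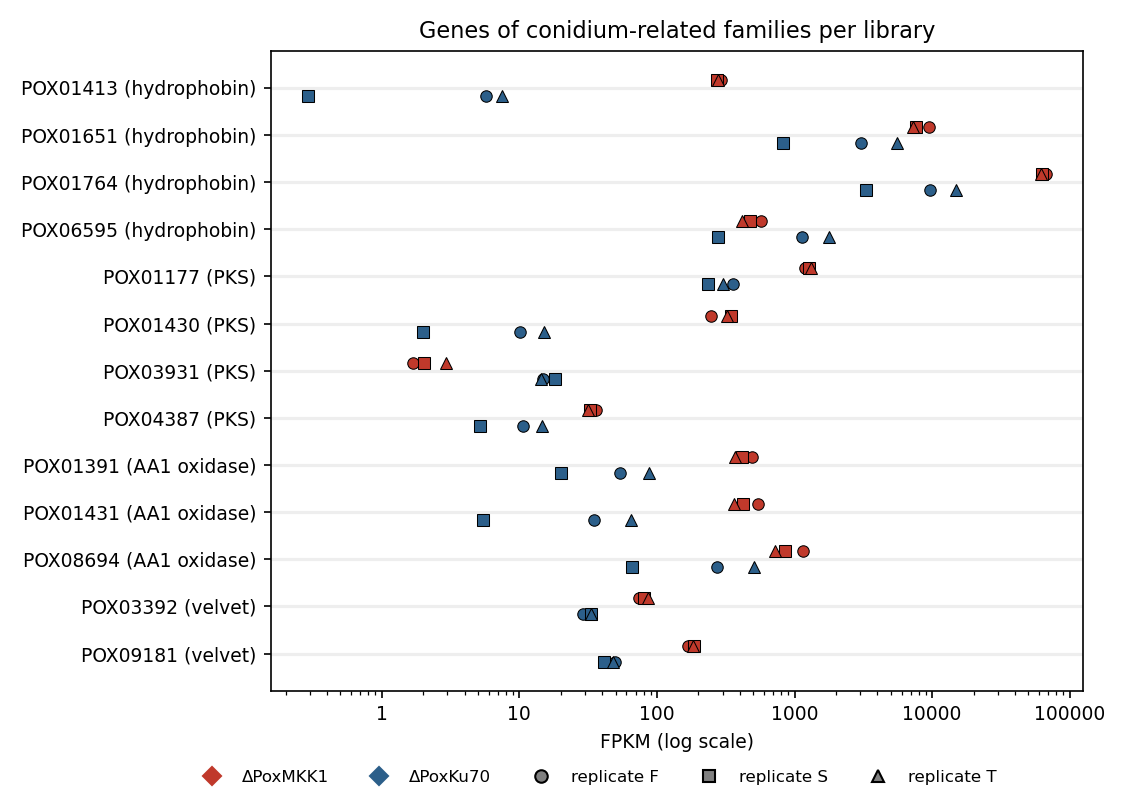
FPKM on a log axis of the 13 genes of conidium-related families (hydrophobins, polyketide synthases or PKS, AA1 oxidases and velvet genes) in each library, Δ*PoxMKK1* in red above Δ*PoxKu70* in blue. Control replicate S lies below F and F below T in 9 of the 13 genes. That order held for 21.6% of all tested genes and for 39.5% of the upregulated genes. Red points lie close together in *POX01413*, at 274 to 294 FPKM, and less so in *POX03931*, at 1.70 to 2.92 FPKM.

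The order of the control libraries seen in *PoxBrlA* and *PoxFlbD*, with replicate S below F and F below T, was also that of 9 of the 13 genes of these families. It held for 21.6% of all tested genes, for 39.5% of the upregulated genes and for 8.19% of the downregulated genes. The 9 genes were all 4 hydrophobin genes, all 3 AA1 genes and the polyketide synthase genes *POX01430* and *POX04387*. In *POX01430* the FPKM in replicate T of Δ*PoxKu70* was 7.59 times that in replicate S, close to 7.85 times for *PoxBrlA*, and in *POX01431* it was 12.01 times. The velvet genes lacked this order, as did *PoxAbaA*: *POX09181* had 49.3, 41.2 and 47.8 FPKM in Δ*PoxKu70*, and *POX03392* had 29.1, 32.9 and 33.0 FPKM. Libraries of 1 strain have no replicate of their own, so this is a description of these 3 libraries. Culture, RNA isolation and library cannot be told apart in it.

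Besides the 3 regulators, the study's list of DEGs holds 35 other putative TF genes, and it too was drawn from these libraries. By edgeR's test 13 of them were upregulated, 17 were downregulated and 5 were not called, with a median log2 fold change of -1.17, beside 10.8% upregulated and 8.93% downregulated among all tested genes. Since the list was made of genes that the study called in these libraries, nothing is read from these counts about TF genes. Ranks by FPKM among the 38 listed TF genes are a description too, since all were chosen for differing between the strains. *PoxBrlA* was the 3rd or 4th most abundant of them in Δ*PoxMKK1* and between the 26th and the 34th in Δ*PoxKu70*. *PoxFlbD* was the 3rd or 4th in Δ*PoxMKK1* and between the 6th and the 11th in Δ*PoxKu70*. *PoxAbaA* stood at ranks 10 to 12 in Δ*PoxMKK1* and 36 or 37 in Δ*PoxKu70*. Of the 35 other TF genes, 5 shared the control order of *PoxBrlA*, a share of 14.3% against the 21.6% of all tested genes. These were *POX03380*, *POX04227*, *POX04590*, *POX05726* and *POX09469*, which are named after their values were seen.

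Among them, the C2H2 zinc finger gene *POX05726* had 741, 799 and 825 FPKM in Δ*PoxMKK1* against 104, 42.4 and 182 FPKM in Δ*PoxKu70*, for a log2 fold change of 2.80 (adjusted p = 0.00322 in edgeR's test). *POX04227*, which the study classes as a winged helix protein although its InterPro entries include an O-methyltransferase domain, had 42.2, 33.2 and 30.1 FPKM in Δ*PoxMKK1* against 2.79, 0.53 and 5.60 FPKM in Δ*PoxKu70* (log2 fold change 3.51). In Δ*PoxKu70* both genes were lowest in replicate S, and *POX04227* was low in all 3 libraries while *POX05726* was not.

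Of 10 regulators of polysaccharide-degrading enzymes that the study names, 2 were upregulated, 3 were downregulated and 5 were not called by edgeR's test, beside 10.8% and 8.93% of all tested genes, and most of them stand in the study's list of DEGs. *PoxCxrB*, a C2H2 zinc finger activator of cellulase and xylanase genes, was lower in the mutant. It had 29.5, 61.4 and 78.4 FPKM in Δ*PoxMKK1*, against 146, 265 and 225 FPKM in Δ*PoxKu70*, and it was downregulated, its log2 fold change being -1.97 (adjusted p = 0.00522 in edgeR's test). In both strains *PoxCxrB* was lowest in replicate F. In Δ*PoxKu70* it was highest in replicate S, where *PoxBrlA* was lowest, and a relation between these genes was not tested. *PoxClrB*, the cellulase activator, was downregulated (-1.40) and *PoxRfxA* upregulated (1.07), although *PoxRfxA* stood at 0.97 and was not called without replicate F of Δ*PoxKu70*. *PoxPacC*, the pH regulator, had a log2 fold change of 0.95 (adjusted p = 0.00393 in edgeR's test), just under the fold minimum, which it passed in 6 of the alternatives, among them the fits without replicate F of Δ*PoxMKK1* (1.06) and without replicate S of Δ*PoxKu70* (1.11). *PoxAmyR*, the amylase regulator, and *PoxClrC* were not called, at -0.11 (adjusted p = 0.475) and -0.58 (adjusted p = 0.150 in edgeR's test). Without replicate T of Δ*PoxMKK1*, *PoxClrC* was downregulated at -1.03 (adjusted p = 0.00351 in edgeR's test).

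Genes of proteins that bound the MAP kinase PoxMK1 came from the study's yeast hybrid screen and not from its list of DEGs. Besides the deleted *POX07948* they are *POX06496*, *POX04853* and *POX07588*, which did not pass edgeR's threshold. *POX06496*, the Hog1-type kinase gene, had 371, 461 and 412 FPKM in Δ*PoxMKK1* and 491, 490 and 361 FPKM in Δ*PoxKu70*, for a log2 fold change of -0.17 (adjusted p = 0.436). *POX04853* and *POX07588* stood at 0.22 (adjusted p = 0.111) and 0.06 (adjusted p = 0.559).

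To find the genes with the most similar profile, log2(FPKM + 0.5) was centred on each gene over the 6 libraries, and the root mean square difference from each regulator was taken for 8620 other genes. This measures shape and size together, and since the libraries fall into 2 strains it is mostly set by the strain difference, so it is given as a description. The control libraries enter it too, so control values shared with a regulator follow partly from the selection. Nearest to *PoxBrlA* were *POX09468*, *POX01431*, *POX06478*, *POX09471* and *POX03496*, at 0.16 to 0.28 log2 units. *POX09468*, a cytochrome P450 gene by its InterPro entry, had 125, 117 and 111 FPKM in Δ*PoxMKK1* against 9.65, 1.61 and 15.3 FPKM in Δ*PoxKu70*, with the low replicate S of *PoxBrlA*. *POX01431* is the AA1 gene described above and *POX09471* a transporter gene of the major facilitator superfamily. *POX03496* had 595 to 807 FPKM in Δ*PoxMKK1* and 13.0 to 51.9 FPKM in Δ*PoxKu70*.

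Nearest to *PoxAbaA* were *POX07268*, *POX04952*, *POX02867*, *POX04224* and *POX03475*, at 0.13 to 0.27 log2 units. *POX07268* ran almost level with it, with 106, 94.6 and 99.1 FPKM in Δ*PoxMKK1* against 4.05, 3.46 and 3.90 FPKM in Δ*PoxKu70*. *POX02867* is listed at 0 FPKM in replicate T of Δ*PoxKu70*. Nearest to *PoxFlbD* were *POX05470*, *POX07279*, *POX08194*, *POX00232* and *POX05139*, at 0.12 log2 units each. Their levels differed widely, from 8.75 to 9.70 FPKM for *POX00232* to 139 to 166 FPKM for *POX08194* in Δ*PoxMKK1*, against 2.34 to 3.40 FPKM and 46.6 to 79.5 FPKM in Δ*PoxKu70*. All 5 were lowest in replicate S and highest in replicate T of Δ*PoxKu70*, as *PoxFlbD* was, which the selection by nearness favours. No gene was among the 5 nearest of more than 1 regulator.

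**Figure D5:**
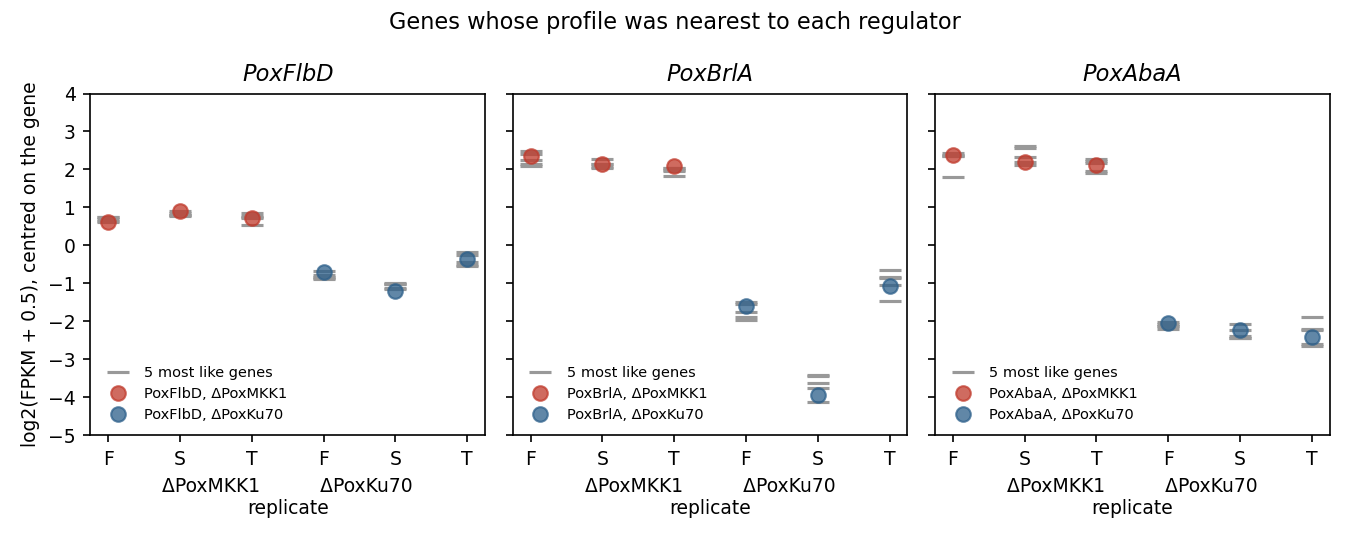
log2(FPKM + 0.5) of each regulator (coloured points) and of its 5 nearest genes (grey bars), centred on each gene's mean over the 6 libraries, by library with Δ*PoxMKK1* left of Δ*PoxKu70*. *PoxBrlA* and its nearest genes share the low value in control replicate S, and *PoxAbaA* and its nearest genes have control values close together. The genes were picked for nearness over these same libraries, so this likeness follows partly from the selection.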

How the data were processed

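RNA-seq libraries of Δ*PoxMKK1* and Δ*PoxKu70*, 3 each, were used as labelled. The submitters' processing notes name BWA 0.7.10-r789, Bowtie2 2.1.0, RSEM 1.2.12 and DESeq2, without their roles or order. The deposited expected counts are estimates per gene in the column layout of RSEM, not normalized, and the deposited FPKM values are scaled by the authors for gene length and mapped fragments. The strand setting of the quantification is not given in the sources used here.

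Expected counts were rounded, filtered with filterByExpr, normalized by TMM and tested with edgeR 4.0.16 (glmQLFit and glmQLFTest) in R 4.3.3. A DEG had a Benjamini-Hochberg adjusted p below 0.05 over all 8749 tested genes and a log2 fold change of at least 1 in size. limma 3.58.1 and DESeq2 1.42.0 were alternatives, and the fit was tested on simulated data. The labels do not say that replicates came from separate cultures, although the study calls them biological repeats, so p-values measure the spread between these samples. Poisson intervals cover counting error only.

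The members, lists and tests were chosen with earlier results of these data known. Named genes were the members, all genes of the conidium-related families, the enzyme regulators the study names by symbol, the PoxMK1-interacting proteins and the 5 genes nearest to each member. None of the gene identifiers matched the RefSeq table used here, so no positions or sequences are given.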

Additional observations from a re-analysis of the deposited data

How the results depend on the processing

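The log2 fold changes of the 3 regulators kept their direction under every alternative run. Leaving out 1 replicate gave 3.47 to 4.47 for *PoxBrlA*, 4.42 to 4.67 for *PoxAbaA* and 1.227 to 1.599 for *PoxFlbD*, and limma on log2(FPKM + 1) gave 4.30 for *PoxAbaA*. The labels do not say whether the same letters pair the samples, and the correlation of deviations from the strain means did not settle it. It was 0.385 for F, 0.0403 for S and 0.157 for T, and between different letters it ran from -0.445 to 0.189. Not every sample correlated best with its own letter. A replicate block gave 959 upregulated and 780 downregulated genes, against 947 and 781, with 4.29 for *PoxBrlA*, 4.56 for *PoxAbaA* and 1.45 for *PoxFlbD*. Leaving out 1 replicate gave 855 to 1008 upregulated and 718 to 857 downregulated genes, and 1 to 2 downregulated genes of the conidium-related families. Spreads and ratios without 1 replicate were computed after the data were seen. The highest over the lowest control library then ran from 1.44 to 7.85 for *PoxBrlA* and from 1.27 to 1.80 for *PoxFlbD*. Within Δ*PoxMKK1* the highest over the lowest ratio ran from 1.10 to 1.44 for *PoxBrlA* to *PoxFlbD* and from 1.08 to 1.40 for *PoxAbaA* to *PoxFlbD*, and within Δ*PoxKu70* from 1.13 to 4.37 and from 1.243 to 2.1, with 1.91 to 9.17 for *PoxAbaA* to *PoxBrlA*. Ranking by Pearson correlation shared 1, 0 and 0 of the 5 nearest genes of *PoxBrlA*, *PoxAbaA* and *PoxFlbD*. *PoxAmyR* (*POX03890*) ran from -0.22 to 0.013 over the fits without 1 replicate, positive without replicate F of Δ*PoxKu70*, against -0.11, and was not called. The cause was not tested. Depth limits the control values most for *PoxBrlA* in replicate S of Δ*PoxKu70* (98 counts) and for *PoxAbaA* in that strain (111 to 151 counts).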
